A study of Mus musculus with 16 samples.

Results

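The genes described here are 9 that mark the resting, or homeostatic, state of microglia: Cx3cr1, P2ry12, P2ry13, Gpr34, Csf1r, Fcrls, Siglech, Tmem119 and Sall1. They were listed by name, with earlier results of these data known, and each was found once, by Ensembl gene identifier, among the 21804 genes of the deposited count table. All 9 passed the filter on low counts in every comparison. The study compared brain tissue of Pdgfb ret/ret mice, which form calcified deposits along small vessels of the thalamus, with that of Pdgfb ret/wt controls, in which the analysed regions do not calcify. In 4 groups of 4 libraries, it sampled both thalamus and cortex from 4 animals of each genotype, all C57BL/6 mice 4 months old, so that each animal gave 1 library per region. No group was given a drug or other agent.

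The ret allele of Pdgfb makes a platelet-derived growth factor B without its retention motif, a mutation known to reduce the pericyte coverage of brain vessels. The ret/wt controls carry 1 copy of that allele and are not wild type. Pdgfb itself was not analysed here. Thalamus samples of ret/ret animals were calcified pieces cut out under a fluorescence stereomicroscope, whereas those of ret/wt animals were tissue of the matching region without deposits. Genotype and the calcified state of the dissected piece therefore cannot be told apart in thalamus. Cortex was taken from both genotypes as a region that does not calcify. Poly(A)-selected RNA of whole tissue pieces was sequenced, so a change in a microglial transcript can come from fewer or more microglia or from less or more RNA per cell, which bulk samples cannot separate.

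Microglia are the resident macrophages of the brain and depend on signals from their neighbours to keep their identity. Neurons present fractalkine (Cx3cl1) to the receptor Cx3cr1, and Csf1 and Il34 act through Csf1r, the receptor tyrosine kinase that microglia need to survive. Transforming growth factor beta, acting through SMAD proteins, maintains much of the homeostatic programme together with PU.1 (Spi1), MEF2 factors and Sall1. When microglia meet amyloid, dying cells or demyelinated tissue, most of these genes are known to fall while a disease-associated set that includes Trem2, Apoe, Lpl and Cst7 rises.

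Total counts ran from 13415391 to 29135064 per library, and 3 counts, the most that a count of 0 allows, equalled 0.110 to 0.235 CPM (counts scaled to equal library size over all 16 libraries). The lowest value of any of the 9 genes in any library was 4.36 CPM, well above that floor. Both libraries of ret/wt replicate 3 and of ret/ret replicate 2 stood apart: 4 Y-linked genes summed to 111 to 174 CPM in them and to 1.90 to 5.14 CPM in the other 12 libraries. Their cortex libraries also held cerebellar transcripts (8 genes), at 917 CPM in ret/wt replicate 3 and 2628 CPM in ret/ret replicate 2, against at most 40.4 CPM in the other cortex libraries. The thalamus libraries of both animals were the highest thalamus libraries for that list too, at 236 and 320 CPM against 41.6 to 157 CPM in the other 6. Both lists were added after earlier results were seen. Results that rest on these animals are given with and without them, except for correlations over all 16 libraries and those of P2ry12 within regions.

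RefSeq's promoter table (GRCm38.p6) held 6 of the 9 genes; Tmem119, Gpr34 and Csf1r are the others. The 250 bases before the RefSeq start are shown for the 4 genes used most below, 5′ to 3′ in the direction of the gene, because their levels varied together over the libraries and PU.1, MEF2 factors and SMAD proteins are known regulators of microglial genes. Capitals mark GAGGAA, the purine box that PU.1 can bind, and CTA followed by any 4 bases and TAG, an outline of the MEF2 element. All 4 genes lie on the minus strand.
P2ry12, chr3:59262986-59263235: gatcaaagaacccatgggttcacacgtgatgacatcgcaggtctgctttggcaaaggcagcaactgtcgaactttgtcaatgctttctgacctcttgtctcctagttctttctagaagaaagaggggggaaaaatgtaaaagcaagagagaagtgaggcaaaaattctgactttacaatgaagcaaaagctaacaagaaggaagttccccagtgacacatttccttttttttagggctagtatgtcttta
P2ry13, chr3:59210883-59211132: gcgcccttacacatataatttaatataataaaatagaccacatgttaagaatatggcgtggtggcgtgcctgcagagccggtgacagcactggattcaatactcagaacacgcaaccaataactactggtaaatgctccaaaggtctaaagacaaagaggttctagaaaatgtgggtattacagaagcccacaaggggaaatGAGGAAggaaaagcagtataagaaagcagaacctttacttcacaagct
Fcrls, chr3:87263525-87263774: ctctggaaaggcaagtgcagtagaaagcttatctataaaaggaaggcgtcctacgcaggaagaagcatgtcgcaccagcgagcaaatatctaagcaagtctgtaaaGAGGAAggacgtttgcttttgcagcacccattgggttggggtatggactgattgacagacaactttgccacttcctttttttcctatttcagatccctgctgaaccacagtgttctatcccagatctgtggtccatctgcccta
Cx3cr1, chr9:120068297-120068546: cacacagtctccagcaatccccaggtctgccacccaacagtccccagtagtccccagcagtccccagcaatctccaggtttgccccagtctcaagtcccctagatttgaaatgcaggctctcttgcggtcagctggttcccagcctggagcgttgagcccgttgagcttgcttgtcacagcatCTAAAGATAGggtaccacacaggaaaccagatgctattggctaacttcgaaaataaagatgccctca
GAGGAA, read on both strands, occurred in P2ry13 (positions -48 to -43 from the start) and in Fcrls (positions -144 to -139), whereas 23.3% of 32851 RefSeq promoters of this length hold it. The MEF2 outline occurred once, in Cx3cr1 (positions -67 to -58), against 3.2% of all promoters. The SMAD box CAGAC was found on either strand in Cx3cr1, P2ry12, Siglech, Sall1 and Fcrls, and in 42.2% of all promoters. The interferon-type element, GAAA followed by any 2 bases and GAAA, was in none of the 6 and in 2.98% of all. No match overlapped another. The RefSeq starts of P2ry12 and Fcrls lie 114 and 75 bases from the nearest start in the GENCODE annotation, so their windows need not be the promoter in use. These are matches of letters only.

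In thalamus, all 9 genes were higher in the calcified ret/ret tissue than in the matching ret/wt tissue. The median log2 fold change was 0.66, beside -0.02 over all 14767 genes tested and with 47.1% of those genes above 0. Of the 9, 7 had an unadjusted p under 0.05 and were higher, in edgeR's quasi-likelihood test, against a background of 3.05% of genes (3.93% in either direction). None of the 9 passed an adjusted p of 0.05, nor did any other gene (0% called), while 581 genes had an unadjusted p under 0.05. DESeq2 called 38 genes in the same libraries, Cx3cr1 alone among the 9.

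**Figure D1:**
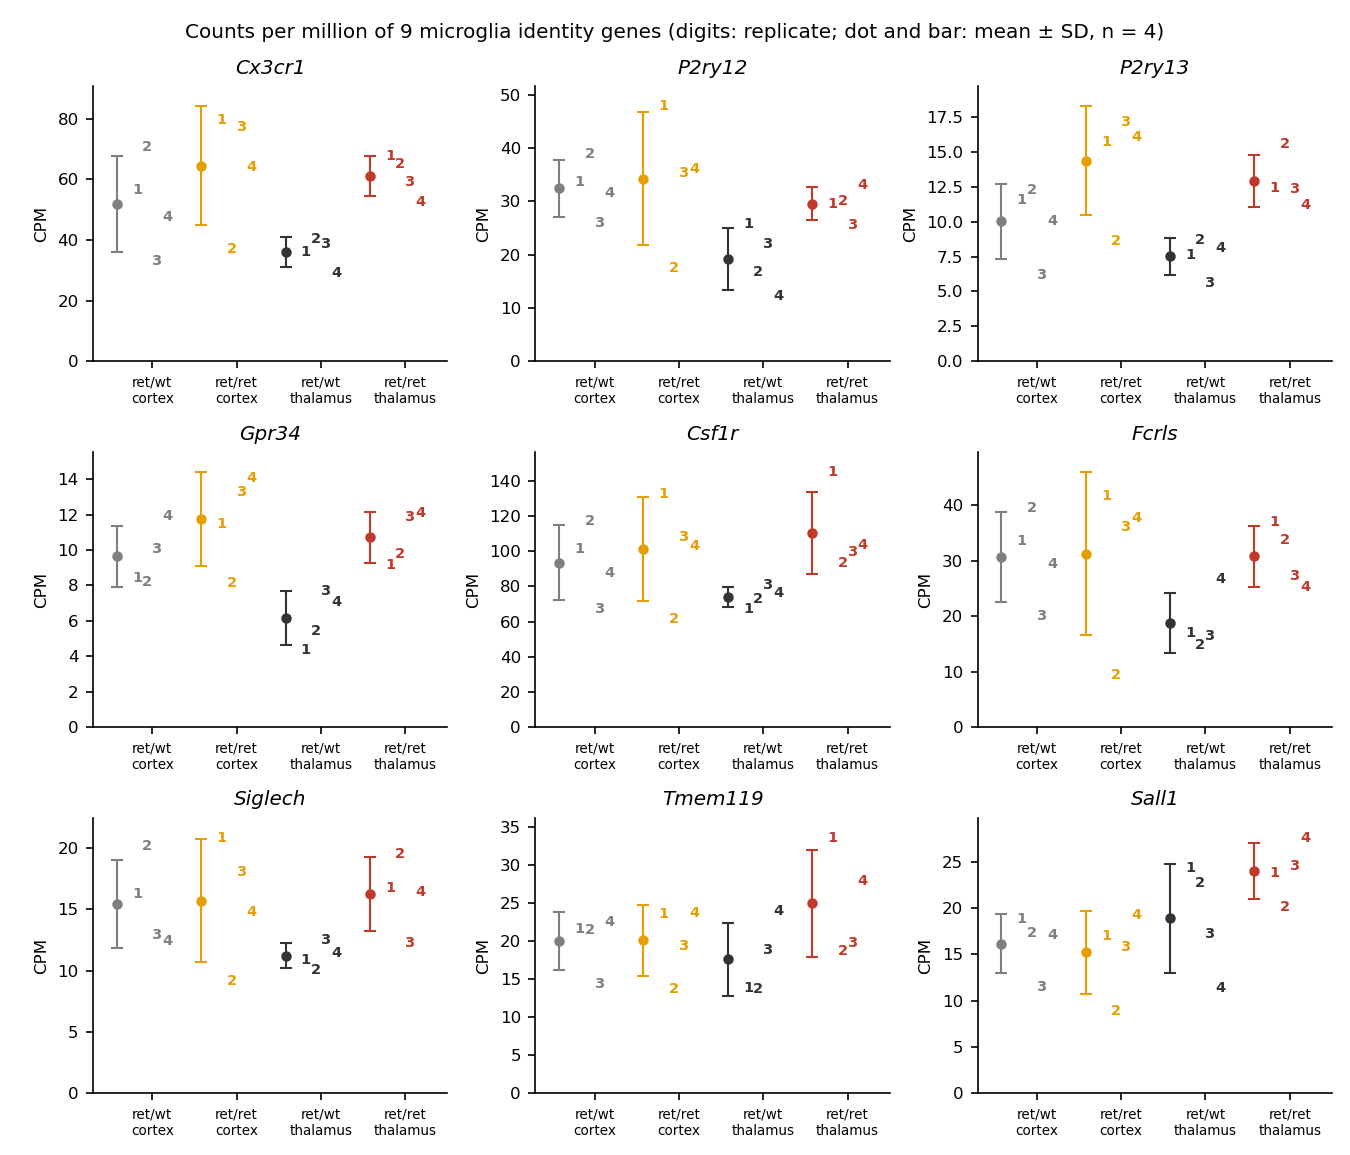
CPM (vertical axis, linear from 0) of the 9 genes in each library, by group; digits are replicates, and the dot and bar are the mean ± SD of 4 libraries. The 4 ret/ret thalamus libraries lie above the 4 ret/wt thalamus libraries for Cx3cr1, P2ry13, Gpr34 and Csf1r, and ret/ret cortex replicate 2 is the lowest of its group in every panel.

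Cx3cr1, the fractalkine receptor (chr9:119901616-120069879, minus strand), was at 35.97, 40.5, 38.7 and 29.1 CPM in replicates 1 to 4 of ret/wt thalamus. It was at 67.8, 65.04, 59.3 and 52.7 CPM in ret/ret thalamus. The lowest ret/ret library was above the highest ret/wt library. The means were 61.2 ± 6.69 and 36.1 ± 5.02 CPM (SD, n = 4 each), and the fitted fold was 1.74. The log2 fold change was 0.80 ± 0.17 (SE), the 18th smallest p of 14767 genes at 0.000824 before adjustment. The adjusted p was 0.676 in edgeR's quasi-likelihood test and 0.00951 in DESeq2, the range over all settings tried being 0.00951 to 1. The two-sided exact permutation p of 0.0286 is the smallest that 4 against 4 libraries allow. Its ligand gene Cx3cl1, expressed by neurons, averaged 297 ± 94.1 CPM in ret/ret thalamus and 347 ± 48.4 CPM in that of ret/wt animals (SD, n = 4). Its log2 fold change, -0.20 ± 0.23 (SE), did not pass the test.

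P2ry12 and P2ry13 are neighbouring receptors for ADP (chr3:59216272-59262871 and chr3:59207892-59210882, both on the minus strand). P2ry12 lets microglia steer their processes towards ATP and ADP released at an injury. Replicates 1 to 4 held 25.8, 16.7, 22.00 and 12.3 CPM of P2ry12 in ret/wt and 29.6, 30.2, 25.6 and 33.01 CPM in ret/ret thalamus. The groups overlapped, because ret/wt replicate 1 was above ret/ret replicate 3, and ret/wt replicate 4 was the lowest of all 8. The log2 fold change was 0.66 ± 0.23 (SE; unadjusted p = 0.0175 in edgeR, exact permutation p = 0.0571). For P2ry13 the values were 7.60, 8.71, 5.62 and 8.14 CPM in ret/wt and 12.4, 15.6, 12.4 and 11.2 CPM in ret/ret, with no overlap. Its log2 fold change was 0.81 ± 0.23 (SE; unadjusted p = 0.00515 in edgeR, exact permutation p = 0.0286), a 1.75-fold difference. Both genes lie inside the gene Med12l, which is read from the opposite strand and shares 9 exonic bases with P2ry12 and 0 with P2ry13. Med12l itself had a log2 fold change of -0.25 ± 0.30 (SE), opposite in sign to both receptors.

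Gpr34, a receptor for lysophosphatidylserine (chrX:13632089-13640858, plus strand), was at 4.36, 5.44, 7.71 and 7.04 CPM in ret/wt and 9.18, 9.74, 11.8 and 12.1 CPM in ret/ret. These groups did not overlap, and the log2 fold change of 0.83 ± 0.26 (SE) was the largest of the 9 (unadjusted p = 0.00994 in edgeR, exact permutation p = 0.0286). Gpr34 lies within Cask on the opposite strand and shares no exonic base with it. Cask had a log2 fold change of -0.002 ± 0.33 (SE).

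Csf1r (chr18:61100598-61132149, plus strand), the receptor for Csf1 and Il34, measured 67.2, 72.5, 80.5 and 76.4 CPM in ret/wt thalamus and 145, 93.1, 99.6 and 104 CPM in ret/ret thalamus. The ret/wt libraries lay close together, and all 4 ret/ret libraries were above them, replicate 1 by the widest margin. The log2 fold change was 0.60 ± 0.19 (SE; unadjusted p = 0.00941 in edgeR, exact permutation p = 0.0286). Hmgxb3, which overlaps Csf1r on the opposite strand over 873 of its 5774 exonic bases, had one of -0.03 ± 0.18 (SE). Of the ligands, Csf1 was at 39.2 ± 12.95 CPM in ret/ret and 28.02 ± 4.71 CPM in ret/wt (SD, n = 4), and its log2 fold change was 0.52 ± 0.25 (SE). Il34 was at 21.2 ± 9.93 and 21.1 ± 11.1 CPM (SD, n = 4), and neither ligand passed an unadjusted p of 0.05.

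Fcrls and Siglech encode surface receptors of the Fc receptor-like and sialic acid-binding families. Fcrls (chr3:87250758-87263738, minus strand) was at 17.01, 14.8, 16.5 and 26.8 CPM in ret/wt and 37.02, 33.8, 27.2 and 25.2 CPM in ret/ret thalamus. A single ret/wt library, replicate 4, reached into the ret/ret range, above ret/ret replicate 4. The log2 fold change was 0.74 ± 0.25 (SE; unadjusted p = 0.0142 in edgeR, exact permutation p = 0.0571). Siglech (chr7:55768178-55778925, plus strand) was at 10.9, 10.04, 12.5 and 11.4 CPM and 16.7, 19.5, 12.2 and 16.4 CPM in the same order. Here ret/ret replicate 3 lay just below ret/wt replicate 3, and the log2 fold change was 0.56 ± 0.21 (SE; unadjusted p = 0.0229 in edgeR, exact permutation p = 0.0571).

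Tmem119 and Sall1 showed the smallest genotype differences in thalamus, and neither had an unadjusted p under 0.05. Tmem119, a membrane protein used to tell microglia from macrophages that come from blood (chr5:113793729-113800516, minus strand), was at 13.9, 13.8, 18.9 and 23.9 CPM in ret/wt and 33.5, 18.7, 19.8 and 27.9 CPM in ret/ret. Replicates 2 and 3 of ret/ret lay within the ret/wt range, and the log2 fold change was 0.53 ± 0.28 (SE; unadjusted p = 0.0864 in edgeR, exact permutation p = 0.143). Sall1, a zinc-finger transcription factor that maintains microglial identity (chr8:89027235-89044162, minus strand), was at 24.3, 22.7, 17.2 and 11.4 CPM in ret/wt and 23.8, 20.1, 24.5 and 27.5 CPM in ret/ret. Replicates 1 and 2 of ret/wt overlapped ret/ret. Its log2 fold change of 0.38 ± 0.24 (SE) was the smallest of the 9 (unadjusted p = 0.142 in edgeR, exact permutation p = 0.171).

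Counted over the 9 genes, 4 had groups that did not overlap in thalamus, against 1.7% of all genes in that direction. Their summed level was 205 to 220 CPM in ret/wt and 292 to 375 CPM in ret/ret thalamus. Leaving out any 1 thalamus library kept all 9 higher in ret/ret, with a median log2 fold change between 0.60 and 0.74. Without ret/wt replicate 3 and ret/ret replicate 2 it was 0.68, with 5 of the 9 at an unadjusted p under 0.05.

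**Figure D2:**
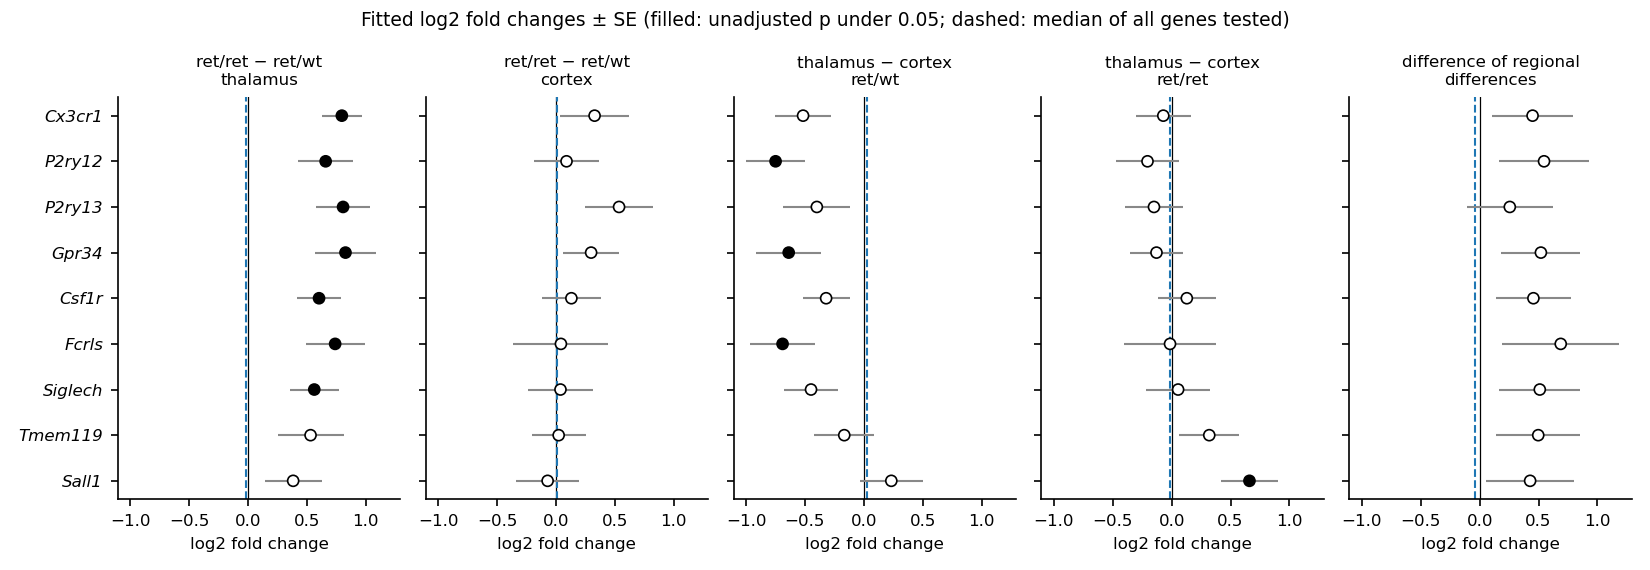
Fitted log2 fold changes (horizontal axis) with standard errors for the 9 genes in the 5 comparisons; filled points have an unadjusted p under 0.05 in edgeR and the dashed line is the median of all genes tested. All 9 points lie right of 0 for genotype in thalamus, they range from -0.07 to 0.54 for genotype in cortex, and 8 of 9 lie left of 0 for region in ret/wt.

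In cortex, which does not calcify, the same genes differed little between genotypes. The median log2 fold change was 0.09, beside 0.01 over 14288 genes tested, and 8 of the 9 genes were above 0 (51.8% of all genes). None had an unadjusted p under 0.05, where 2.62% of genes did and were higher, and no gene's groups separated (1.58% of genes did so upwards). In edgeR 3 genes of the whole table were called (0.021%), none of them among the 9. DESeq2 also called none of the 9.

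The widest cortical difference was that of P2ry13, at 11.5, 12.3, 6.20 and 10.04 CPM in ret/wt and 15.7, 8.59, 17.1 and 16.02 CPM in ret/ret. Replicates 1, 3 and 4 of ret/ret lay above every ret/wt library, and replicate 2 lay below 3 of them. Its fitted log2 fold change of 0.54 ± 0.29 (SE) had an unadjusted p of 0.0945 in edgeR and an exact permutation p of 0.171. Cx3cr1 and Gpr34 followed with log2 fold changes of 0.33 ± 0.29 and 0.30 ± 0.24 (SE). Csf1r, P2ry12, Fcrls, Siglech, Tmem119 and Sall1 were between -0.07 and 0.13, with standard errors from 0.23 to 0.40.

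Single libraries set much of the spread in cortex. Fcrls was at 41.7, 9.51, 36.1 and 37.7 CPM in ret/ret cortex, where replicate 2 was far below the others, and at 33.5, 39.5, 20.1 and 29.5 CPM in ret/wt cortex, where replicate 3 was the lowest. Csf1r had its lowest values in the same libraries, with 132, 61.4, 108 and 103 CPM in ret/ret and 101, 117, 67.4 and 87.6 CPM in ret/wt cortex. Counted over the 9 genes, ret/ret replicate 2 was the lowest library of its group for all 9, at a median of -0.71 log2 units from the group mean. In ret/wt cortex, replicate 3 was the lowest for 7 of the 9, at -0.45. These are the 2 cortex libraries with raised cerebellar transcripts. Neither stood apart in thalamus, where the medians of all 8 libraries were between -0.14 and 0.12.

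Without both animals the median log2 fold change in cortex was 0.19, with 8 of 9 above 0 and P2ry13 alone at an unadjusted p under 0.05 in edgeR. Without ret/ret cortex replicate 2 alone it was 0.31, with all 9 above 0. Without ret/wt cortex replicate 3 alone it was -0.02, and without ret/ret cortex replicate 1 alone -0.07, with 3 of 9 above 0 in each case. The direction in cortex thus depended on which library was left out. Whether the cerebellar transcripts account for the low values was not tested.

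**Figure D3:**
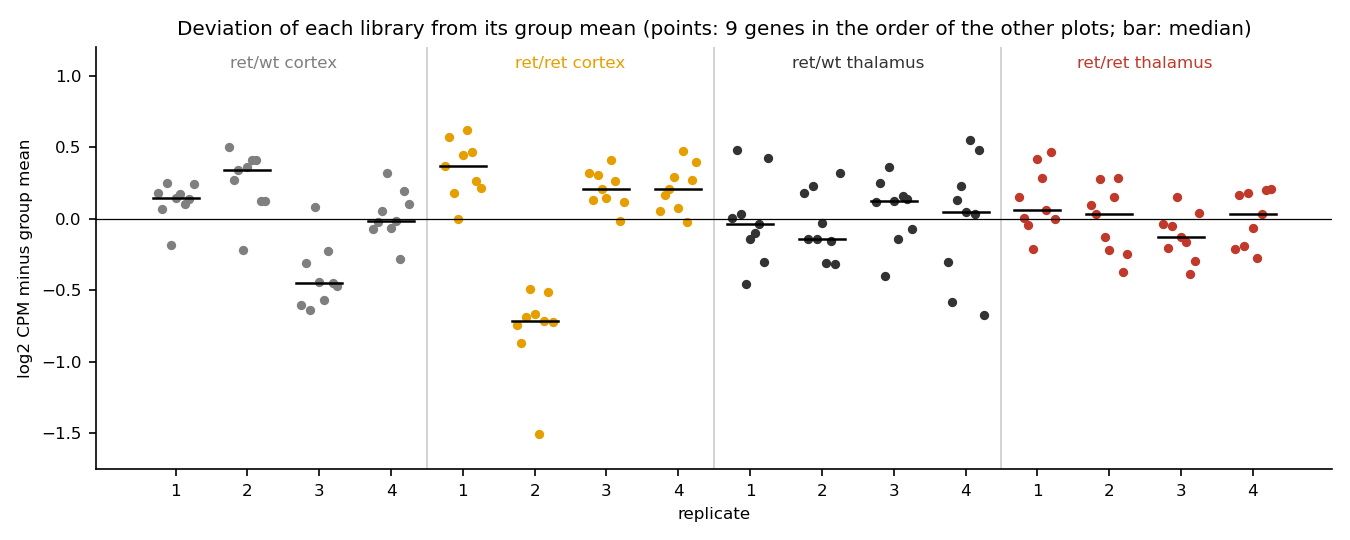
Log2 CPM of each of the 9 genes minus its group mean (vertical axis) in each of the 16 libraries (horizontal axis, replicates within groups); points are genes and the bar is their median. All 9 points of ret/ret cortex replicate 2 lie below 0, and 8 of 9 do in ret/wt cortex replicate 3.

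Between regions, the 9 genes were mostly lower in thalamus than in cortex in ret/wt mice. There 8 of 9 had a negative log2 fold change (47.8% of all genes did), with a median of -0.45 beside 0.03 over 14442 genes. P2ry12, Gpr34 and Fcrls had an unadjusted p under 0.05 and were lower, where 14% of all genes did and were. P2ry12 and Gpr34 had groups that did not overlap, as 11% of genes had in that direction. None of the 9 passed the adjusted threshold in edgeR, against 12.6% of genes called. P2ry12 passed in DESeq2.

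P2ry12 in ret/wt cortex measured 33.7, 38.9, 25.9 and 31.6 CPM, all above the 25.8, 16.7, 22.00 and 12.3 CPM of ret/wt thalamus by a narrow margin at the closest pair. The log2 fold change of thalamus against cortex was -0.75 ± 0.25 (SE; edgeR adjusted p = 0.0775, DESeq2 adjusted p = 0.0388). Gpr34 was at 8.40, 8.18, 10.1 and 11.9 CPM in ret/wt cortex, again all above thalamus, with a log2 fold change of -0.64 ± 0.28 (SE; edgeR adjusted p = 0.170). For Fcrls the log2 fold change was -0.69 ± 0.27 (SE; edgeR adjusted p = 0.135). Without ret/wt thalamus replicate 4, the library in which Fcrls was highest, it was -0.93 and passed (edgeR adjusted p = 0.0377). Sall1 alone was higher in thalamus, by 0.23 ± 0.27 (SE) on the log2 scale. Within animals it was higher in thalamus in replicates 1, 2 and 3, by 0.37, 0.39 and 0.58 log2 units, and in replicate 4 the difference was -0.58.

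In ret/ret mice this regional gap was not seen. In the main fit 4 genes were higher and 5 lower in thalamus. The median of the 9 was -0.01, beside -0.02 over 14715 genes. Sall1 was the only one with an unadjusted p under 0.05, higher in thalamus, against 12.1% of all genes. It was at 16.99, 8.85, 15.8 and 19.3 CPM in cortex and 23.8, 20.1, 24.5 and 27.5 CPM in thalamus, with no overlap (8.18% of genes in that direction) and a log2 fold change of 0.66 ± 0.25 (SE; edgeR adjusted p = 0.121). None of the 9 was called in edgeR, where 9.5% of genes were. Sall1 was higher in thalamus in all 4 ret/ret animals, by 0.49 to 1.18 log2 units. Tmem119 was also higher in all 4, by 0.03 to 0.51, with a log2 fold change of 0.32 ± 0.25 (SE) that did not pass. The exact test over 4 animals cannot go below 0.125 and gave that value for both.

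One animal weighed on the ret/ret regional values. In ret/ret replicate 2, whose cortex library held the cerebellar transcripts, all 9 genes were higher in thalamus, by a median of 0.82 log2 units. In replicates 1, 3 and 4, 2 to 4 of the 9 were higher and the medians were -0.23, -0.38 and -0.13. Leaving that cortex library out moved the median log2 fold change over the 9 genes from -0.01 to -0.24, and leaving out ret/ret cortex replicate 1 moved it to 0.18. The signs of Fcrls and Cx3cr1 also turned with the scaling, and that of Fcrls with the filter and test. That of Siglech turned without either library of ret/ret replicate 2, and that of P2ry12 without ret/ret cortex replicate 1. Csf1r turned sign without ret/ret thalamus replicate 1 and without ret/ret cortex replicate 2. No regional direction in ret/ret is therefore given for these 5 genes. In the ret/wt animals, medians were -0.60, -0.69, -0.05 and -0.30 for replicates 1 to 4.

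**Figure D4:**
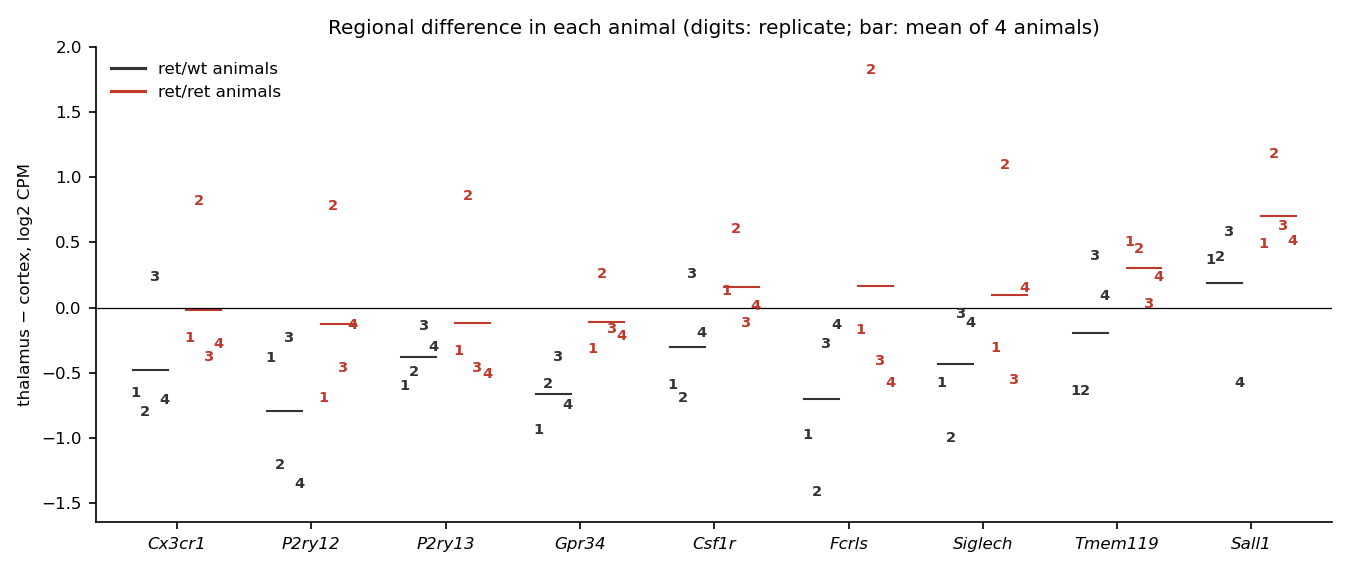
Thalamus minus cortex in log2 CPM (vertical axis) for each gene in each animal; digits are replicates, dark for ret/wt and red for ret/ret, and bars are means of 4 animals. Gpr34 is the gene whose ret/wt and ret/ret animals do not overlap, and ret/ret replicate 2 is the highest ret/ret animal for 8 of the 9 genes.

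The difference between these regional differences (the interaction of genotype and region) was positive for all 9 genes, from 0.26 for P2ry13 to 0.69 for Fcrls, with a median of 0.50. Over all 15286 genes the median was -0.04 and 44.4% were above 0. None of the 9 had an unadjusted p under 0.05 (0.89% of genes did and were positive), and no gene of the table was called (0%) in edgeR. That fit held no term for animal. With animals as blocks the median over the 9 genes was 0.51, and again none had an unadjusted p under 0.05 in edgeR. DESeq2 called 4 genes, none of them among the 9. The smallest p of the 9 was that of Gpr34, with an estimate of 0.52 ± 0.33 (SE; unadjusted p = 0.140 in edgeR).

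Taken animal by animal, Gpr34 was -0.94, -0.59, -0.38 and -0.75 log2 units different in ret/wt replicates 1 to 4 (thalamus minus cortex). It was -0.32, 0.26, -0.17 and -0.22 log2 units different in ret/ret. The 4 ret/wt animals were all lower than the 4 ret/ret animals, which 0.85% of all genes also showed, and the exact permutation p was 0.0286 for Gpr34 and 0.0857 to 0.686 for the other 8 genes. P2ry12 differed by -0.38, -1.21, -0.23 and -1.35 in ret/wt and by -0.69, 0.78, -0.47 and -0.13 in ret/ret animals, which overlap. Without ret/wt replicate 3 and ret/ret replicate 2 the median interaction over the 9 genes was 0.45, and leaving out single libraries gave 0.33 to 0.59, the lowest without ret/ret cortex replicate 2.

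Levels between the genes were compared per kilobase of the longest annotated transcript. Over the 16 libraries Csf1r was the highest, at 20.2 ± 5.07 CPM per kilobase (SD, n = 16). P2ry12, Fcrls and Cx3cr1 followed at 12.3, 12.3 and 11.9, then Tmem119 at 9.22, Siglech at 6.36, Gpr34 at 4.58, P2ry13 at 4.43 and Sall1 at 3.53. Csf1r led in each of the 4 groups and was above the next gene in all 4 libraries of each. The order among P2ry12, Fcrls and Cx3cr1 changed from group to group, and within a group the mean differences between neighbours in that order were smaller than the SD of those differences, except between Fcrls and Cx3cr1 in ret/wt cortex. Gpr34 and P2ry13 likewise could not be ordered, each being higher in 2 of 4 libraries of every group. Sall1 was the lowest in 3 groups. In ret/wt thalamus it stood above P2ry13 and Gpr34, at 3.59 ± 1.11 CPM per kilobase (SD, n = 4), by less than the SD of the difference. Taking the union of exons as length moved Siglech from the 6th place to the 8th.

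The 9 genes varied together from library to library. After subtracting group means, Pearson's r was above 0 for all 36 pairs, between 0.05 and 0.85 with a median of 0.58, as a description over 16 libraries of 8 animals that share depth, tissue piece and scaling. Cx3cr1 with Csf1r had the highest value and Gpr34 with Sall1 the lowest. Cortex libraries of ret/ret replicate 2 and ret/wt replicate 3 lay farthest from their group means, at medians of -0.71 and -0.45 log2 units. These r values are not given without them, so their part in the shared variation was not tested. The ratio that varied least was Csf1r to Siglech, whose log2 difference had an SD of 0.21 over the 16 libraries, followed by Cx3cr1 to P2ry13 at 0.22. Gpr34 to Sall1 varied most, at 0.65. In ret/wt thalamus, replicates 3 and 4 held more Gpr34 and less Sall1 than replicates 1 and 2, with Gpr34 at 4.36, 5.44, 7.71 and 7.04 CPM and Sall1 at 24.3, 22.7, 17.2 and 11.4 CPM.

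Set against Csf1r in the same library, Cx3cr1 was -0.87 ± 0.13 log2 units in ret/wt cortex, -0.66 ± 0.12 in ret/ret cortex, -1.05 ± 0.25 in ret/wt thalamus and -0.83 ± 0.26 in ret/ret thalamus (SD, n = 4 each). P2ry12 stood lower against Csf1r in thalamus, at -1.996 ± 0.52 in ret/wt and -1.88 ± 0.31 in ret/ret, than in cortex, at -1.51 ± 0.10 and -1.597 ± 0.15 (SD, n = 4 each). Sall1 went the other way, at -2.03 ± 0.57 and -2.18 ± 0.30 in thalamus and -2.52 ± 0.18 and -2.73 ± 0.23 in cortex (SD, n = 4 each).

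Relations between 3 pairs were tested within regions, over 8 animals and with exact permutation p-values, where the genotypes overlapped in both genes. This left 4 relations. In cortex, Cx3cr1 and Csf1r had a Pearson r of 0.956 (exact p = 0.000546, Benjamini-Hochberg 0.00218) and a Spearman rho of 0.952 (exact p = 0.00114, adjusted 0.00456). Without the 2 animals farthest from the median, which are ret/wt replicate 3 and ret/ret replicate 2, r was 0.891. P2ry12 and Tmem119 had an r of 0.869 in cortex (exact p = 0.00486, adjusted 0.00972) and a rho of 0.667 (exact p = 0.0831, adjusted 0.111). Their r was 0.790 without the 2 farthest, here ret/ret replicates 2 and 1. P2ry12 and P2ry13 had an r of 0.715 (exact p = 0.0458, adjusted 0.0611) and a rho of 0.762 (exact p = 0.0368, adjusted 0.0735). Their r was 0.860 without the 2 farthest, again ret/ret replicates 2 and 1. For both of these pairs ret/wt replicate 3 was kept in. In thalamus P2ry12 and Tmem119 had an r of 0.271 (exact p = 0.525) and a rho of 0.310 (exact p = 0.462). The r was 0.566 without the 2 farthest there, ret/wt replicates 4 and 2. The other 2 pairs were not computed there because the genotypes separated.

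The gene whose pattern over the 16 libraries was most like the mean of the 9 (each scaled to unit variance) was Shisa5, with a Pearson r of 0.947 among 15277 genes ranked. It was followed by Syk at 0.873, Gm45808 at 0.869, Itgam at 0.852, Nek6 at 0.841, Ppp1r16a at 0.839, Fcgr3 at 0.834, Samsn1 at 0.831, Cd68 at 0.822 and Lag3 at 0.805. Syk is a tyrosine kinase below immune receptors, Itgam encodes the CD11b integrin chain, Fcgr3 an Fc receptor and Cd68 a lysosomal glycoprotein of macrophages. Of these 10, Itgam, Fcgr3 and Cd68 were in the gene lists used below. With group means removed Shisa5 was again the most alike and the only one of the 10 that was still among the first 10. It was then followed by Chst1 at 0.914, Ppfia3 at 0.903, Hist2h2aa2 at 0.901, Kcnu1 at 0.895, Agap2 at 0.895, Pde1b at 0.887, Ppp2r2b at 0.885, Slc1a4 at 0.884 and Nrarp at 0.884, none of them in the microglial lists. The median r over all genes was -0.02. Neither ranking is given without ret/wt replicate 3 and ret/ret replicate 2.

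Other microglial genes were mostly higher in ret/ret thalamus too. Of 20 other homeostatic microglia genes, 18 were higher and 6 of the 18 had an unadjusted p under 0.05, with a median log2 fold change of 0.58. For this and the following lists in thalamus, the share of all genes that were higher was 47.1%. The share higher at an unadjusted p under 0.05 in edgeR was 3.05%. Slc2a5, a fructose transporter, was at 7.14 ± 2.37 CPM in ret/ret and 2.72 ± 0.59 CPM in ret/wt (SD, n = 4), and the integrin chain Itgb5 was at 11.3 ± 3.17 and 4.62 ± 1.48 CPM. Nrros, which presents latent transforming growth factor beta on microglia, was one of the 2 that were lower, at 3.02 ± 0.44 CPM in ret/ret and 6.74 ± 3.91 CPM in ret/wt (SD, n = 4). Without ret/wt replicate 2, at 12.5 CPM, the log2 fold change of Nrros went from -1.12 to -0.65 (unadjusted p = 0.0818 in edgeR). None of these passed an adjusted p of 0.05 in edgeR.

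All 20 genes of a general microglia and macrophage list were higher in ret/ret thalamus, 12 at an unadjusted p under 0.05, with a median of 0.72. The largest were Tyrobp (1.10 ± 0.39), C1qa (1.07 ± 0.33), C1qc (1.03 ± 0.32) and Ly86 (1.02 ± 0.29), as log2 fold changes with SE. Without ret/ret replicate 1 they were between 0.65 and 0.79, and the unadjusted p of Tyrobp was 0.0743 in edgeR. That p was 0.0524 without ret/wt replicate 1 and 0.0517 without ret/wt replicate 2. Tyrobp is the adaptor of Trem2, and C1qa and C1qc are chains of complement C1q. Among 24 disease-associated microglia genes 22 were higher, 13 at an unadjusted p under 0.05, with a median of 0.73. Of these, Clec7a was at 3.88 ± 2.53 CPM in ret/ret and 0.54 ± 0.32 CPM in ret/wt (SD, n = 4), Ccl6 at 5.03 ± 3.27 and 1.61 ± 0.84 (unadjusted p of 0.0534 in edgeR without ret/ret replicate 1), and Lpl at 9.32 ± 1.07 and 2.98 ± 0.69. Cst7 was at 5.41 ± 4.64 CPM in ret/ret and near the floor in ret/wt thalamus. Trem2, named in the title of the series, stood at 1.07 ± 0.33 and Apoe at 0.44 ± 0.32 (log2 fold change ± SE). The homeostatic genes and most disease-associated genes were thus both higher in ret/ret thalamus as a group. Whether they rose together from piece to piece was not tested. With group means removed, r of the disease-associated genes with the mean of the 9 ran from -0.40 (Cd9) to 0.79 (Lpl). No gene of the general or disease-associated list was called in edgeR for genotype in thalamus.

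**Figure D5:**
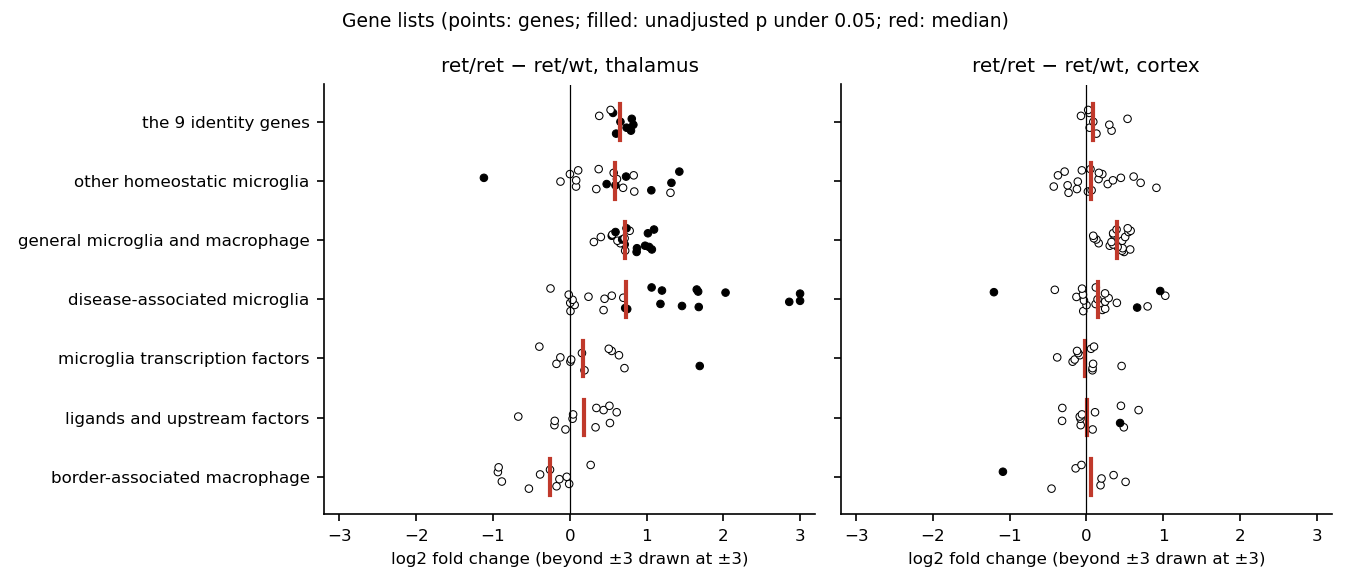
Log2 fold changes of ret/ret against ret/wt (horizontal axis) for the genes of 7 lists in thalamus and cortex; filled points have an unadjusted p under 0.05 in edgeR and the red line is the median. The microglial lists have medians of 0.58 to 0.73 in thalamus, and in cortex from 0.06 to 0.40.

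Transcription factors and upstream signals had smaller medians. Of 12 microglial transcription factors 9 were higher in ret/ret thalamus, with a median of 0.18, and Irf8 alone had an unadjusted p under 0.05, at 8.65 ± 7.92 CPM against 2.75 ± 0.48 CPM (SD, n = 4). Without ret/ret replicate 1, which held 20.1 CPM, its log2 fold change went from 1.69 to 0.83 (unadjusted p = 0.0802 in edgeR). Log2 fold changes were 0.51 ± 0.39 for Spi1, which encodes PU.1, 0.71 ± 0.34 for Ikzf1 and 0.55 ± 0.46 for Smad3 (SE). Of 12 ligands and upstream factors, 8 were higher and none had an unadjusted p under 0.05. Itgav was at -0.67 ± 0.33, Ltbp1 at 0.61 ± 0.72 and Tgfbr2 at 0.52 ± 0.28 (log2 fold change ± SE). Within the P2Y12-like receptor family and its relatives, 4 of 8 other genes were tested in thalamus, and 2 of these were higher in ret/ret. P2ry14, a further neighbour on the same chromosome, went the other way from P2ry12 and P2ry13. It was at 0.65 ± 0.47 CPM in ret/ret and 3.49 ± 3.501 CPM in ret/wt samples of thalamus (SD, n = 4). On the log2 scale this was a difference of -2.38 ± 0.73 (SE; unadjusted p = 0.00859 and adjusted p = 0.9998 in edgeR). The highest library was ret/wt replicate 3 at 8.73 CPM, and without it the estimate was -1.38 (unadjusted p = 0.0460 in edgeR). Without both animals that stood apart it was -1.12 (unadjusted p = 0.0777 in edgeR).

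In cortex the general microglia and macrophage list was higher for all 20 genes (51.8% of all genes were), with a median of 0.40. None had an unadjusted p under 0.05 in edgeR, where 2.62% of all genes did and were higher. The other homeostatic list was near 0 there, with 12 of 20 higher and a median of 0.06. In ret/wt animals, thalamus against cortex had a median of -0.27 for the other homeostatic list and 0.14 for the general list, beside -0.45 for the 9 genes. Genes of the other homeostatic list and of the transcription factor list did pass the adjusted threshold between regions in edgeR. None of the 9 and no gene of the general list did, while 9.5% of all genes passed in ret/ret and 12.6% in ret/wt. In the disease-associated list 4 genes passed in ret/ret, all higher in thalamus, and in ret/wt 3 passed as higher and 1 as lower. Of the ligands and upstream factors Cx3cl1 alone passed, in ret/wt. It was at 347 ± 48.4 CPM in thalamus and 856 ± 302 CPM in cortex (SD, n = 4; edgeR adjusted p = 0.00835). Kcnk13, the potassium channel THIK-1 of microglia, was higher in thalamus in both genotypes, at 12.1 ± 0.99 against 5.65 ± 0.50 CPM in ret/wt and 10.9 ± 3.22 against 5.17 ± 0.99 CPM in ret/ret (SD, n = 4; edgeR adjusted p = 0.00866 and 0.0393). Golm1 was lower in thalamus of ret/wt, at a log2 fold change of -1.53 ± 0.28 (SE; edgeR adjusted p = 0.00591), and Nrros in that of ret/ret, at -1.85 ± 0.47 (SE; edgeR adjusted p = 0.0394). Among the transcription factors, Mef2c was lower and Tal1 higher in thalamus in both genotypes, and Smad3 was lower in ret/wt. Mef2c, which cortical neurons also express, was at 50.9 ± 40.4 CPM in thalamus and 765 ± 293 CPM in cortex of ret/wt (SD, n = 4). Over the 16 libraries, r with the mean of the 9 genes was -0.20 for Tal1, 0.27 for Mef2c and 0.32 for Smad3. Which cells held the transcripts of these factors was not tested.

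Other macrophages could also hold some of these transcripts. Of 11 border-associated macrophage genes tested in thalamus 1 was higher in ret/ret, with a median of -0.26 and none at an unadjusted p under 0.05. Summed over 13 genes that list was at 25.6 to 80.3 CPM in ret/ret and 25.8 to 93.7 CPM in ret/wt thalamus. Mrc1, which defines those cells, had a log2 fold change of -0.26 ± 0.52 (SE). Blood leukocyte genes were scarce, with 3 of 14 passing the low-count filter in thalamus, and the 14 summed to 1.88 to 8.07 CPM in ret/ret and 2.77 to 9.37 CPM in ret/wt thalamus. For both lists the ranges of the genotypes overlapped.

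Among other tissue markers, all 10 pericyte genes were lower in ret/ret thalamus (median -0.76, 3 at an unadjusted p under 0.05 in edgeR). All 10 endothelial genes were higher (median 0.49, 1 at that threshold). Over all genes, 3.93% passed that threshold in either direction, and 47.1% were higher in ret/ret thalamus. The summed levels of both lists overlapped between genotypes. Pericyte sums were 68.1 to 235 CPM in ret/ret and 112 to 353 CPM in ret/wt, and endothelial sums were 230 to 528 and 248 to 289 CPM. Astrocyte genes were higher for 7 of 10, with sums of 4609.7 to 6489 CPM in ret/ret and 4435 to 5859 CPM in ret/wt. Neuron genes were higher for 4 of 10, with sums of 3664 to 6703 and 4542 to 7647 CPM. Oligodendrocyte genes were higher for 7 of 10. Choroid plexus genes summed to 422 to 596 CPM in ret/ret and 409 to 559 CPM in ret/wt thalamus, and in cortex to at most 436 CPM except in ret/wt replicate 4, at 1741 CPM. Mitochondrially encoded transcripts took 5.87% to 12.1% of counts in ret/ret and 4.24% to 8.80% in ret/wt thalamus. Their part in the difference of the 9 genes was not tested.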

How the data were processed

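RNA of 16 mouse brain samples (8 animals, 2 regions each) was measured by stranded poly(A) RNA-seq, per the labels' protocols. The deposited table holds estimated counts per Ensembl gene (0.453% of nonzero values lie within 0.001 of a whole number), and kallisto 0.44.0 and GRCm38.p6 are named in the submitters' processing notes. How transcripts were summed to genes and whether strand was used are not given in the sources used here. Estimates of this kind can split reads between overlapping or similar genes.

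Counts were rounded and fitted with edgeR 4.0.16 (filterByExpr, trimmed-mean scaling, quasi-likelihood F-test, Benjamini-Hochberg over all genes tested, threshold 0.05), on the 8 libraries of each comparison or all 16 for the interaction. These main fits, also those between regions, held no term for animal. CPM use scaling over all 16 libraries, and log2 CPM add a prior count of 1. Exact permutation tests were two-sided, over 70 regroupings of 4 against 4 (smallest p 0.0286) or 16 sign changes of 4 animals. Symbols came from GENCODE M21 (99.1% of genes). The fits were tested on simulated data.

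The 9 genes, the 14 gene lists and the tests were chosen with earlier results of these data known. All 9 genes were named. From the lists, some of the genes called were named, or else up to 4 with the largest absolute log2 fold change. Those 4 had a mean log2 CPM of at least 1. The 10 genes most alike, overlapping genes, the P2Y12-like family, Trem2, Tyrobp and Apoe were named too. Alternatives were DESeq2 1.42.0, limma-voom 3.58.1, other scalings and filters, a replicate block, all libraries in 1 fit, and libraries left out. Regions are paired by the animal identifiers of the labels. Deviations of same-animal samples correlated at -0.004 to 0.24 in ret/ret and -0.02 to 0.19 in ret/wt; across genotypes equal numbers are different animals.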

Additional observations from a re-analysis of the deposited data

Results flagged for a closer look

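Of 36 sets of 4 libraries (9 genes in 4 groups), 2 held a library far from the other 3. Chance alone gives about 1 in 20 such sets, a share close to the 2 of 36 seen here. P2ry13 in ret/ret cortex replicate 2 was at 8.59 CPM, and its other 3 libraries were at 15.7 to 17.1 CPM. Tmem119 in ret/wt cortex replicate 3 was at 14.4 CPM, and its other 3 libraries were at 21.5 to 22.5 CPM. These are the cortex libraries in which cerebellar transcripts summed to 2628 and 917 CPM. Their part in the low values was not tested.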

How the results depend on the processing

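The higher level of all 9 genes in ret/ret thalamus held under every setting tried, with medians of 0.60 to 0.74, as did the positive interaction (0.33 to 0.59). In ret/wt 8 of 9 genes were lower in thalamus throughout (medians -0.58 to -0.29). For genotype in cortex the signs of 6 of the 9 genes, and for region in ret/ret those of 5, turned under at least 1 setting, and the cause was not tested.

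Genes called in thalamus by genotype were 0 in edgeR, 38 in DESeq2 and 3 with all 16 libraries in 1 fit. In cortex they were 3 in edgeR, 39 in DESeq2, 7 with all 16 libraries in 1 fit, 1 without ret/wt replicate 3 and ret/ret replicate 2, and 0 to 2 without single libraries. For region in ret/ret, DESeq2 called 2591, the fit without both animals 2564, and those without single libraries 627 to 2007. In ret/wt single libraries left out gave 1178 to 1797, and DESeq2 called 4 genes for the interaction. Upper-quartile scaling shifted the median of all genes from -0.02 to 0.10 in ret/ret and from 0.03 to 0.13 in ret/wt. It turned the calls higher and lower in thalamus from 603 and 795 to 819 and 662, and from 785 and 1028 to 988 and 877. Library size alone gave 0.13, with 977 and 844, in ret/wt.

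For genotype in cortex Fcrls was -0.13 by limma-voom. Leaving out single cortex libraries gave -0.12 to 0.31 for P2ry12, -0.12 to 0.17 for Tmem119, -0.0289 to 0.31 for Csf1r, -0.13 to 0.23 for Siglech, -0.22 to 0.12 for Sall1 and -0.13 to 0.35 for Fcrls. For region in ret/ret Cx3cr1 was 0.0505 by upper-quartile scaling and 0.0101 by library size alone, Siglech was -0.22 without both animals, and Fcrls was 0.11 and 0.0753 by those scalings, 0.21 by limma-voom, 0.009 without a filter and 0.0165 with a filter of 1 CPM. Single libraries left out gave -0.24 to 0.0732 for Cx3cr1, -0.40 to 0.0267 for P2ry12, -0.032 to 0.31 for Csf1r, -0.12 to 0.25 for Siglech and -0.30 to 0.18 for Fcrls.

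With the replicate block, which pairs regions by animal, 1177 genes were called in ret/ret and 1487 in ret/wt, and Fcrls was 0.13 in ret/ret. In the genotype comparisons, where the number pairs different animals, the block gave 0 calls in thalamus, 0 in cortex and -0.0599 for Fcrls in cortex. It changed the call of none of the 9 genes. Each of the 9 was above the floor of 3 counts in every library, but the part of depth in their spread was not tested. With 4 animals a group, differences of about 0.5 log2 units are left within the error.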
